A study of Mus musculus with 2 samples.

Results

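Alternative last exon transcript pairs are pairs of annotated transcripts of 1 gene whose final exons begin at different bases. A pair was made of the 2 transcripts with the highest level summed over both libraries, each with 2 or more exons. The gene had to lie on 1 locus and to reach 10 TPM (transcript abundance scaled to a fixed sum in each library) in each library. The pair was kept where the last exons, read along the strand of the gene, differed in their first base. Of 24532 gene IDs in the deposited tables, 8385 passed the level limit, 3018 of these had 2 or more transcripts, and 3006 gave a pair. Of these pairs, 499 are described here, 2387 shared 1 last exon, and 120 shared the start of the last exon but not its end. The members were thus chosen by their TPM, and these levels are given as a description. The difference between the libraries was no part of the choice. Just inside the level limit stood Aplf with 10.04 TPM in the KO-labelled library and 10.7 TPM in the wild-type-labelled library, and just outside it stood Rufy3 with 10.6 TPM in the KO-labelled library and 9.72 TPM in the wild-type-labelled library.

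The RNA came from sorted CD69+ DP thymocytes of C57BL/6 mice aged 6 weeks. DP thymocytes carry both CD4 and CD8, and CD69 marks those that have received a signal through the T cell receptor. There was 1 library labelled KO, with the genotype NSRP1f/fCD4Cre (a conditional knockout of NSrp70, the nuclear speckle protein that Nsrp1 encodes), and 1 library labelled wild type, with the genotype NSRP1f/f. Both genotypes thus carry the floxed alleles, and Cre under the control of Cd4 sequences becomes active around the DP stage. The labels do not say how many animals gave each library. With 1 library per genotype no difference has a replicate check. No test was made, and every interval below covers only the counting error of the read pairs assigned to a form.

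The last exon of a transcript holds the site where the RNA is cut and given its poly(A) tail. A gene can end its RNA early, in an exon that lies within an intron of the longer form or by reading on past a splice donor until a poly(A) site is met, or it can splice on to a last exon further downstream. The outcome reflects a contest between splicing and cleavage, in which U1 snRNP protects early sites and the cleavage and polyadenylation factors use them. The choice can give a protein another carboxyl end or the RNA another untranslated region. In activated T cells a well known case is Nfatc1, whose short protein form comes from an early poly(A) site.

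Within each pair, the form whose last exon ends further downstream is called the downstream form. Where both ended at the same base, it is the form whose last exon starts further downstream. In 143 pairs the upstream form ended in an exon that lay within an intron of the other transcript or outside its exons (intronic). In 175 pairs the last exon of the upstream form overlapped an internal exon of the downstream form (composite). In 164 pairs both forms ended at the same base and the last exons differed only in their start (same end). In 11 pairs the last exons overlapped and ended at different bases, often only 1 or 2 bases apart, and in 6 pairs the transcripts shared no span. In 77 of the pairs with overlapping last exons, of the same or other ends, 1 last exon also reached an earlier exon of the other transcript. Such a last exon includes the intron between these 2 exons. In 388 of the 499 pairs all other introns that the forms could share were shared.

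The bases at which the forms part are shown for genes with the largest differences below, and for Cdc42, whose last exons resemble each other in sequence. All are transcript sequences of GENCODE M21 on GRCm38. In the first group, lower case marks the end of the exon before and capitals mark the first bases of the last exon. For Iqsec1, Dclre1c and Snx27 both last exons end at the same base and begin far apart. For Tle5 they begin 3 bases apart, so that both forms read almost alike. For Med25 and Cdc42 the same exon is joined to either of 2 separate last exons.
Iqsec1 downstream form, chr6:90659598-90661025, minus strand: gagagcaatgtggaaTTTCAGCCCTTCCAG
Iqsec1 upstream form, chr6:90659598-90662955, minus strand: gagagcaatgtggaaGGCTCCATCATTAGC
Dclre1c downstream form, chr2:3453595-3455354, plus strand: gagatgaaatcacagAACTAGACACCCTGA
Dclre1c upstream form, chr2:3452848-3455354, plus strand: tccatcttgactcggAGGAAGACGATGATC
Snx27 downstream form, chr3:94497542-94501271, minus strand: aagtggagaaaagagAATATTTTCCAGATG
Snx27 upstream form, chr3:94497542-94502065, minus strand: aagtggagaaaagagGAATATTAGTTAGAG
Tle5 downstream form, chr10:81565475-81566371, plus strand: aactccatcatccgaCAGCTCCAGGCTCAC
Tle5 upstream form, chr10:81565472-81566371, plus strand: aactccatcatccgaCAGCAGCTCCAGGCT
Med25 downstream form, chr7:44876765-44878290, minus strand: gggcgccactgccagTGGCCAAACGAAAGA
Med25 upstream form, chr7:44879384-44879514, minus strand: gggcgccactgccagGTCAGATGCTGCTGA
Cdc42 downstream form, chr4:137319696-137321192, minus strand: tctgccctcacacagAAAGGCCTAAAGAAT
Cdc42 upstream form, chr4:137321763-137322619, minus strand: tctgccctcacacagAGAGGTCTGAAGAAT

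For composite pairs the point that matters is the splice donor that the upstream form does not use. Below, lower case marks the end of the exon that both forms share, and capitals mark the bases that the upstream form keeps by reading on into the intron.
Dnajb6 upstream form, last exon chr5:29766325-29767101, plus strand: ccttgacaataaatgGTAAGGAGCACCTGC
Mrpl1 upstream form, last exon chr5:96238839-96239684, plus strand: accaaaatagcaacaGTAAGTTATAGCTGC
Cstf2 upstream form, last exon chrX:134074513-134075863, plus strand: cagggatccagacagGTAATGCTTGTAGCA
Each of these stretches of capitals opens with GT. Of the 175 composite pairs, 173 had an upstream form that continued past the donor, by a median of 777 bases. In 167 of the 171 whose bases could be matched (97.7%) the bases just past the donor were GT, and in the other 4 they were GC.

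The letters of the poly(A) signal were searched near the cut site. The letters AATAAA or ATTAAA, on the strand of the transcript and without regard to overlap, stood within the last 50 bases of 275 of 350 matched downstream forms (78.6%) and of 288 of 367 matched upstream forms (78.5%). The share was 78.1% among the most abundant transcripts of 6595 matched genes with 10 TPM. Same end pairs have the same last bases in both forms, which draws these shares together. In composite pairs the shares were 75.4% of downstream forms and 72.9% of upstream forms, and in intronic pairs 77.1% of downstream forms and 80.8% of upstream forms. A match describes letters only and does not show a site in use.

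The KO-labelled library was the deeper one, with 5076 megabases of read coverage on annotated exons, against 4199 megabases in the wild-type-labelled library. Nsrp1, which has 1 annotated transcript and is not among the pairs, stood at 29.6 TPM in the KO-labelled library and 29.7 TPM in the wild-type-labelled library. This level of the whole transcript does not by itself bear out the KO label, and depth at the floxed exons was not examined. It therefore does not show whether the deletion took place. The libraries are named by their labels throughout. Xist stood at 76.3 TPM in the KO-labelled library and 201.8 TPM in the wild-type-labelled library. The Y-linked Ddx3y stood at 71.2 TPM in the KO-labelled library and 31.1 TPM in the wild-type-labelled library. Each library thus held RNA of both genes, at different levels. A differing mix of male and female cells and the genotype therefore cannot be told apart. The 9 markers of DP thymocytes summed to 5584 TPM in the KO-labelled library and 5075 TPM in the wild-type-labelled library, and of the 5 markers of thymic epithelium Krt5, Krt8 and Foxn1 were listed at 0 in both. Epcam stood at 8.35 TPM in the KO-labelled library and 6.87 TPM in the wild-type-labelled library, and Psmb11 at 0.193 TPM in the KO-labelled library and 0.212 TPM in the wild-type-labelled library. The 5 myeloid and dendritic markers summed to 52.2 TPM in the KO-labelled library and 70.1 TPM in the wild-type-labelled library, and their part in the results was not tested. In such bulk samples fewer cells of a type and less RNA per cell cannot be told apart. In 4205 genes with 1 transcript, the depth of the last exon relative to the other exons was higher in the KO-labelled library by a median of 0.18 on the log2 scale, and 85.5% of these genes lay above 0. This difference in coverage moves with the counts below, and its part in them was not tested.

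Most pairs kept nearly the same balance of forms in both libraries. The share of the downstream form, as a percent of the summed TPM of the pair, had a median of 57.3% in the KO-labelled library and 55.4% in the wild-type-labelled library. The median of the differences, KO minus wild type, was 0.852 percentage points, with quartiles of -2.13 and 5.12, and 300 pairs (60.1%) lay within 5 points of 0. The downstream share was higher in the KO-labelled library in 295 pairs, lower in 201 and equal in 3. At 10 points or more, 57 pairs had a higher and 31 a lower downstream share in the KO-labelled library. The form with more TPM was not the same in both libraries in 43 of the 499 pairs. This held for 9 of the 120 pairs that share the start of the last exon but not its end, and it was not counted over all pairs.

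Differences of this size were no more frequent in these pairs than in transcript pairs of the dataset at large. Of the 499 pairs 17.6% were past 10 points in either direction, against 23.8% of all 3006 pairs and 25% of the 2507 pairs whose last exons begin at the same base. Over the 455 pairs of any kind with different ends, which include the members that end at different bases, 10.8% had a higher downstream share by 10 points or more and 7.03% a lower one. Among the 120 pairs that share the start of the last exon, none of them a member, 12.5% were higher and 10% lower. In the 499 pairs 11.4% were higher and 6.21% lower. At the level of the gene, 3 of the 499 genes were higher and 2 lower in the KO-labelled library by 1 or more on the scale of log2(TPM + 1), against 0.657% and 1.37% of 12029 genes. Gpx1, Birc5 and Tle5 were the higher ones and Znrf1 and Xist the lower ones. Such genes were thus no more frequent among the members than over all genes. Of these genes Gpx1, Tle5 and Znrf1 were also past 10 points by TPM share, and Birc5 and Xist were not.

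**Figure D1:**
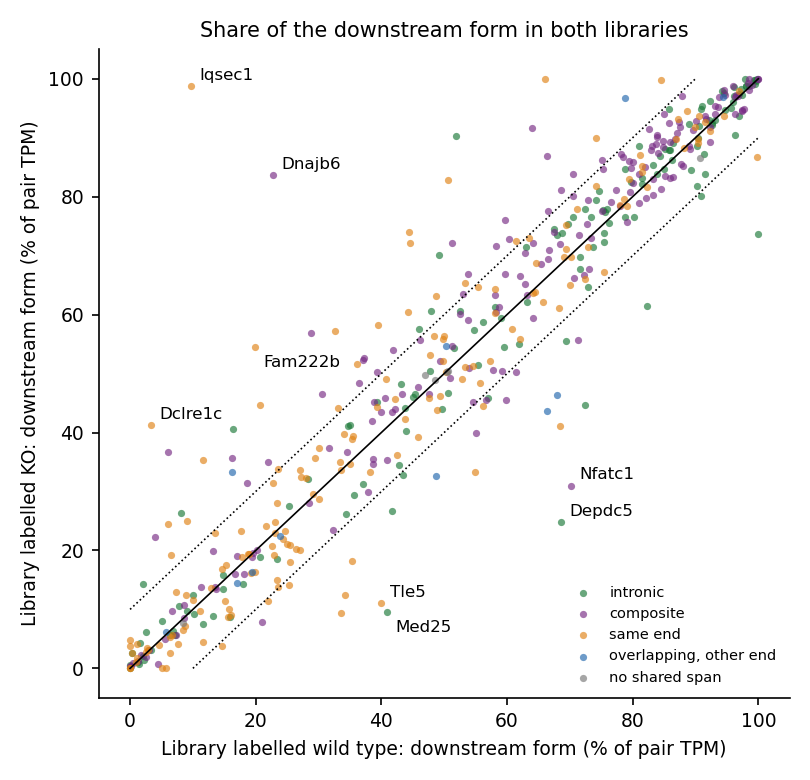
Share of the downstream form in the KO-labelled library (vertical axis, percent of pair TPM) against the wild-type-labelled library (horizontal axis, percent of pair TPM), with 1 point per pair, colours for the class of last exon, the diagonal as a solid line and 10 points on either side as dotted lines. Most of the 499 points lie between the dotted lines, with 57 above and 31 below them.

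Composite and same end pairs, which make up most of the 499, also held most of the larger differences. In both classes more of these were higher than lower in the KO-labelled library. Pairs higher by 10 points or more made up 14.3% of composite, 14.0% of same end and 4.90% of intronic pairs, against 11.4% of all. Pairs lower by as much made up 4%, 6.71% and 6.99% of these classes, against 6.21% of all. Among composite pairs, 25 of 175 had a higher downstream share by 10 points or more in the KO-labelled library and 7 a lower one, and the median difference was 2.29 points. Among intronic pairs 7 of 143 were higher and 10 lower, with a median of 0.368 points. Among same end pairs 23 of 164 were higher and 11 lower, with a median of 0.599 points. The 11 overlapping pairs with other ends held 2 higher and 3 lower, and none of the 6 pairs without a shared span was past 10 points. Whether the classes differ beyond chance cannot be tested with 1 library each.

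In 25 of the same end pairs the last exons began 3 bases apart, the spacing of tandem splice acceptors. Of these, 4 had a higher and 2 a lower downstream share by 10 points or more. The other 139 held 19 and 9. Reads of the last exons can tell such forms apart only where they cross the junction. In 17 of the 25 pairs all other introns that the forms could share were shared, so the split of TPM rests mainly on those reads. In the remaining pairs the forms also differ in other introns, and reads there can tell them apart too. The intervals given below for such pairs count all assigned read pairs, also those on shared bases, and are too narrow. The same applies to other same end pairs over the bases that both last exons share.

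**Figure D2:**
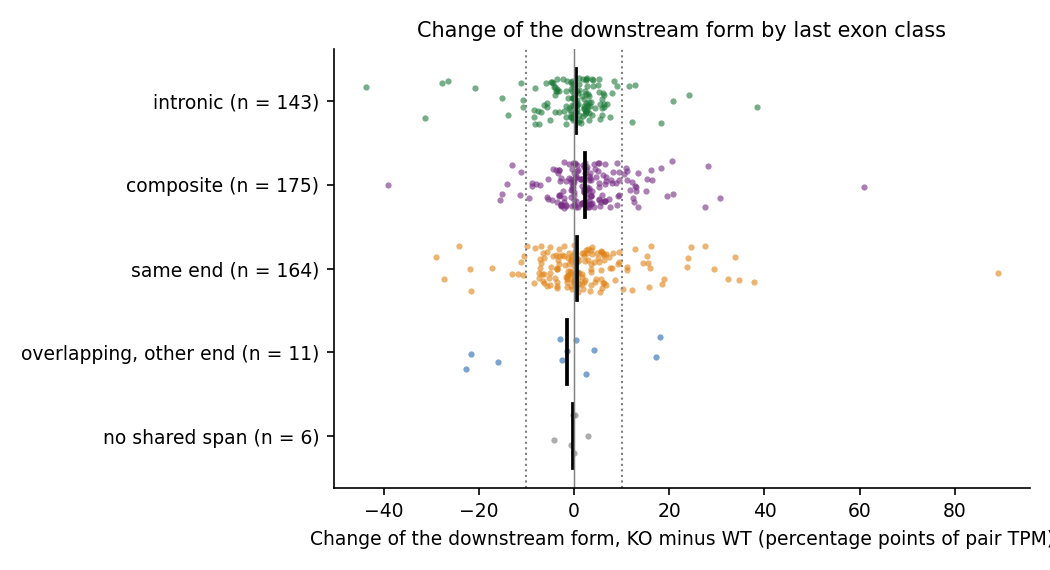
Difference of the downstream share, KO minus wild type, in percentage points of pair TPM, by class of last exon, with 1 point per pair. Composite pairs are shifted upward, with a median of 2.29 points, against 0.368 points for intronic pairs and 0.599 points for same end pairs.

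A second readout was the depth of the last exons themselves, the downstream depth as a percent of the depth of both, in the 485 pairs with 50 or more estimated read pairs over both last exons in each library. The authors' program assigned this depth to transcripts in the same step as TPM, so the readouts are not independent. By depth, 49 pairs had a higher and 19 a lower downstream share by 10 points or more in the KO-labelled library, 14% of the 485. Over all 2843 pairs with enough read pairs it was 24.8%. In 2358 of these the last exons begin at the same base, so their depth share mostly splits reads of shared bases between 2 transcripts. The 2 percentages are thus not of quite the same measure. In 55 of the 68 members past 10 points by depth, the 95% exact binomial intervals of the libraries did not overlap. This count covers only pairs already chosen for a large depth difference, and no share over all pairs was taken. It was 34 of 36 in same end pairs, where shared bases make the intervals too narrow. In composite pairs it was 10 of 16, and in intronic pairs 6 of 11. Composite pairs were again mostly higher, with 14 higher and 2 lower of 171. Intronic pairs had 9 higher and 2 lower of 137 by depth, a split unlike that by TPM. Where the last exons did not overlap at all, 23 of 313 pairs were higher and 4 lower.

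The readouts had the same sign in 403 of the 485 pairs. Of the 84 pairs past 10 points by TPM, 50 were past 10 points in the same direction by depth, 36 of them higher and 14 lower. A further 26 pointed the same way with a smaller difference, 7 pointed the other way by less than 10 points, and Depdc5 pointed the other way by more. Another 17 pairs were past 10 points by depth alone. The agreement rested largely on same end pairs, with 26 of 32 past 10 points the same way by both, and their last exons share most bases. Among composite pairs 12 of 32 agreed in this way, and among intronic pairs 7 of 15.

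**Figure D3:**
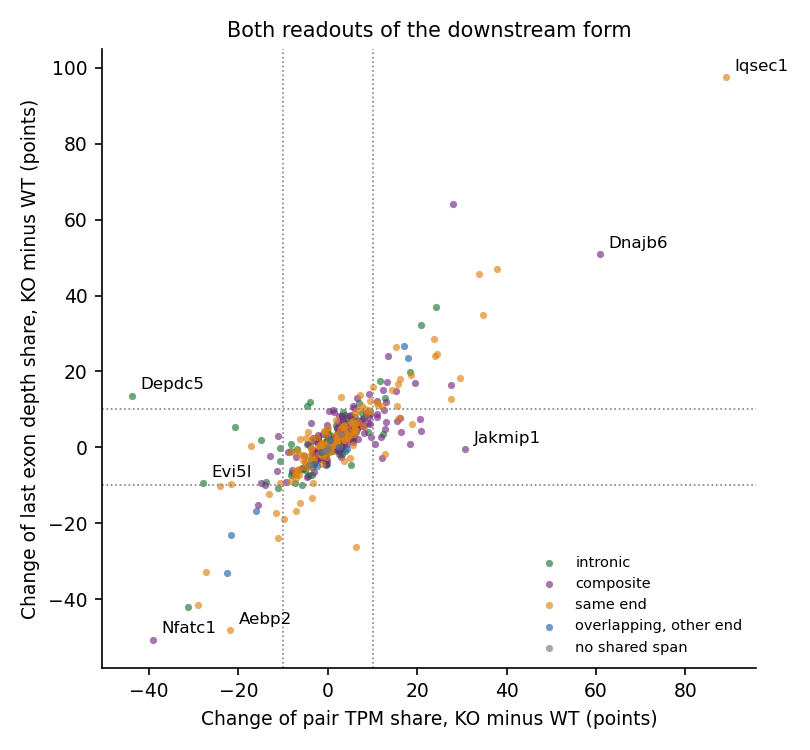
Difference of the last exon depth share (vertical axis) against the difference of the pair TPM share (horizontal axis), both KO minus wild type in percentage points, for 485 pairs, with dotted lines at 10 points. Iqsec1, Dnajb6 and Nfatc1 lie far out on both axes, Jakmip1 lies near 0 on the vertical axis, and Depdc5 lies in the opposite quadrant.

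Among composite pairs the largest difference was that of Dnajb6 (gene ID 23950), which encodes an HSP40 co-chaperone whose long form is nuclear and short form cytosolic in human cells. The downstream form had 64.5 TPM (95% exact Poisson interval 61.7 to 67.5) in the KO-labelled library and 36.5 TPM (34.1 to 39.0) in the wild-type-labelled library. The upstream form, which reads past the donor shown above, had 12.7 TPM (11.1 to 14.4) in the KO-labelled library and 124 TPM (119 to 130) in the wild-type-labelled library. The rank of the forms was reversed between the libraries, and the downstream form made up 83.6% of the pair in the KO-labelled library and 22.7% in the wild-type-labelled library. By last exon depth its share was 75.9% (71.9 to 79.9) in the KO-labelled library and 25.1% (22.8 to 27.5) in the wild-type-labelled library. The gene as a whole, which has 4 transcripts, stood at 108 TPM in the KO-labelled library and 193 TPM in the wild-type-labelled library.

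Nfatc1 (gene ID 18018, chromosome 18) showed the opposite pattern. It encodes a transcription factor of T cell receptor signalling, and its upstream form, with the early last exon, was the higher one in the KO-labelled library. This form had 56.7 TPM (54.7 to 58.8) in the KO-labelled library and 16.1 TPM (14.9 to 17.3) in the wild-type-labelled library. The downstream form had 25.5 TPM (24.1 to 27.0) in the KO-labelled library and 37.8 TPM (35.8 to 39.8) in the wild-type-labelled library. This made the downstream share 31.0% in the KO-labelled library and 70.1% in the wild-type-labelled library. By depth it was 28.2% (26.4 to 30.2) in the KO-labelled library and 78.8% (75.4 to 81.9) in the wild-type-labelled library. The pair held 55.7% of the gene's TPM in the KO-labelled library and 44.8% in the wild-type-labelled library, since 6 transcripts are annotated. As a share of the whole gene, the downstream form was 14.2 points lower in the KO-labelled library. The 2 forms of Nfatc1 also differ in other introns, so this difference is not one of the last exon alone.

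Jakmip1, whose product binds Jak kinases and microtubules, and Mrpl1, a mitochondrial ribosomal protein gene, were further composite pairs among the 12 largest positive differences. Jakmip1 had a downstream TPM share of 36.8% in the KO-labelled library and 5.99% in the wild-type-labelled library, but its last exon depth share was 16.1% in the KO-labelled library and 16.6% in the wild-type-labelled library. All 50-base words of its downstream last exon also occur in transcripts of Gm1043. Mrpl1 had a downstream share of 91.6% in the KO-labelled library and 64.0% in the wild-type-labelled library, and its depth intervals overlapped. For these genes the readouts thus gave less certain differences than for Dnajb6 and Nfatc1.

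**Figure D4:**
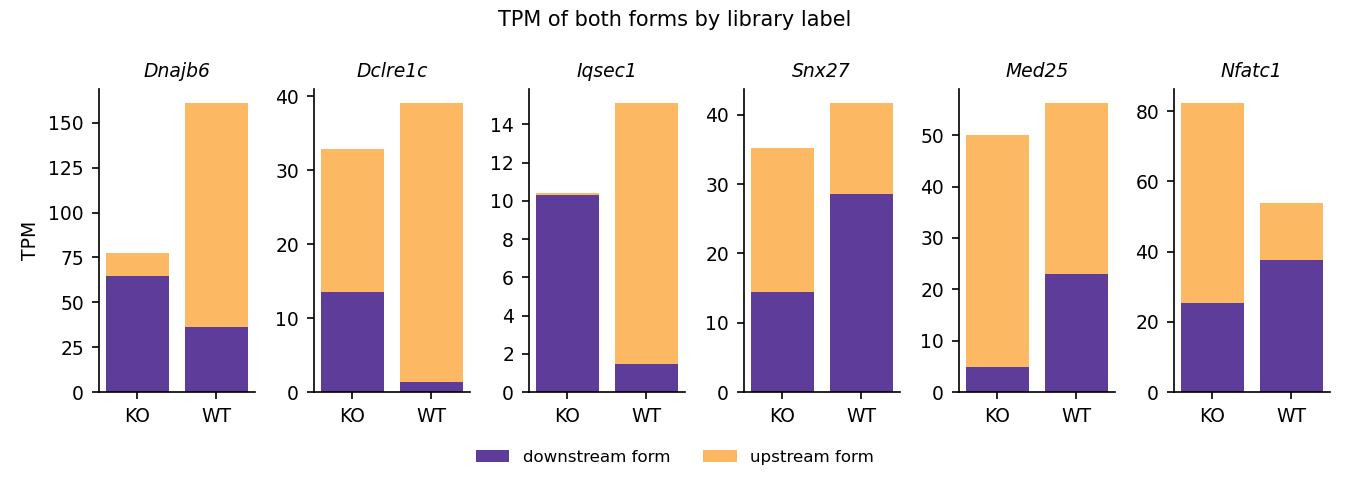
TPM of the downstream form (bottom segment) and upstream form (top segment) in the KO-labelled library (left bar) and the wild-type-labelled library (right bar), 1 library each, for 6 genes with separate vertical scales. Dnajb6, Dclre1c and Iqsec1 have a larger downstream segment in the KO-labelled library, and Snx27, Med25 and Nfatc1 a smaller one.

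Among same end pairs, Iqsec1 (gene ID 232227), which encodes an exchange factor for Arf6, had the largest difference of the 499 pairs. Its downstream form had 10.3 TPM (9.42 to 11.2) in the KO-labelled library and 1.46 TPM (1.10 to 1.89) in the wild-type-labelled library. Its upstream form had 0.133 TPM (0.07 to 0.25) in the KO-labelled library and 13.6 TPM (12.7 to 14.6) in the wild-type-labelled library. The libraries thus expressed almost wholly different forms, with a downstream share of 98.7% in the KO-labelled library and 9.64% in the wild-type-labelled library. The depth share was 100% (99.3 to 100) in the KO-labelled library and 2.55% (0.866 to 5.98) in the wild-type-labelled library. The stop codons of the forms lie at 90660981 for the downstream form and 90662455 for the upstream form. The forms also differ in other introns, so the difference is not one of the last exon alone.

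Dclre1c (gene ID 227525) encodes Artemis, the nuclease that opens hairpins in V(D)J recombination, which DP thymocytes carry out at the T cell receptor alpha locus. Its downstream form had 13.5 TPM (12.4 to 14.8) in the KO-labelled library and 1.31 TPM (0.93 to 1.798) in the wild-type-labelled library. Its upstream form had 19.3 TPM (17.996 to 20.7) in the KO-labelled library and 37.8 TPM (35.7 to 39.9) in the wild-type-labelled library. As a share of the pair, the downstream form was 41.2% in the KO-labelled library and 3.34% in the wild-type-labelled library, and by depth 48.8% (45.6 to 51.9) in the KO-labelled library and 1.67% (0.895 to 2.98) in the wild-type-labelled library. The upstream form was the more abundant one in both libraries. Its last exon also reached an earlier exon of the downstream form and includes the intron between.

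Snx27, which encodes a sorting nexin that returns cargo from endosomes together with retromer, differed the other way. The downstream form of Snx27 had 14.5 TPM (13.5 to 15.4) in the KO-labelled library and 28.5 TPM (27.0 to 30.1) in the wild-type-labelled library, and its upstream form 20.7 TPM (19.6 to 21.8) in the KO-labelled library and 13.1 TPM (12.2 to 14.1) in the wild-type-labelled library. The downstream form made up 41.1% of the pair in the KO-labelled library and 68.5% in the wild-type-labelled library, and the depth share was 40.7% (38.4 to 43.0) in the KO-labelled library and 73.5% (71.3 to 75.6) in the wild-type-labelled library. The stop codon of the upstream form, at 94502057, lies within the capitals printed above.

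The remaining same end pairs whose last exons begin more than 3 bases apart included Fam222b, Mthfsd and Eng with a higher downstream share in the KO-labelled library. Fam222b had 54.6% in the KO-labelled library and 19.9% in the wild-type-labelled library, and by depth 54.3% in the KO-labelled library and 19.5% in the wild-type-labelled library. Mthfsd had 73.9% in the KO-labelled library and 44.5% in the wild-type-labelled library, and both of its forms share a stop codon at 121098712. Eng, which encodes a co-receptor of the TGF-beta family, had 72.1% in the KO-labelled library and 44.5% in the wild-type-labelled library. Its last exons overlap an exon of Fpgs, its depth intervals overlapped, and its difference was 3.69 points when depth was summed over all transcripts with the same last exon.

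Scmh1, Aebp2 and Myo9b had a lower downstream share in the KO-labelled library. Scmh1, a Polycomb group gene, had 9.30% in the KO-labelled library and 33.5% in the wild-type-labelled library. The last exon of its upstream form also reached an earlier exon of the downstream form. Aebp2, which encodes a cofactor of the Polycomb repressive complex PRC2, had 12.5% in the KO-labelled library and 34.3% in the wild-type-labelled library, and its depth shares lay further apart, at 18.5% (16.3 to 20.8) in the KO-labelled library and 66.7% (62.5 to 70.6) in the wild-type-labelled library. Myo9b, a myosin with a GTPase-activating domain, had 33.3% in the KO-labelled library and 54.9% in the wild-type-labelled library. The depth difference was smaller for Scmh1 and Myo9b, at -10.1 and -9.68 points.

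Among the pairs whose last exons begin 3 bases apart, Ralgapa1, Trim32 and Tle5 were past 20 points. Ralgapa1, a GTPase-activating protein gene for Ral, had its upstream form listed at 0 in the KO-labelled library and at 9.60 TPM (8.89 to 10.3) in the wild-type-labelled library, while its downstream form had 25.7 TPM in the KO-labelled library and 18.7 TPM in the wild-type-labelled library. With depth summed over all transcripts that have the same last exon, its difference was 16.4 points. Trim32, a ubiquitin ligase gene, had a downstream share of 57.2% in the KO-labelled library and 32.7% in the wild-type-labelled library by both readouts.

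Tle5 encodes a short corepressor of the Groucho family. The downstream form of Tle5 had 106 TPM (100.7 to 110.8) in the KO-labelled library and 166 TPM (159 to 173) in the wild-type-labelled library. Its upstream form had 854 TPM (840 to 869) in the KO-labelled library and 249 TPM (241 to 258) in the wild-type-labelled library. Of the pair TPM, the downstream form had 11.0% in the KO-labelled library and 40.01% in the wild-type-labelled library. By depth its share was 10.8% (10.2 to 11.4) in the KO-labelled library and 52.3% (49.7 to 54.9) in the wild-type-labelled library. Nearly all bases of its last exons are shared, so these intervals are too narrow. The gene also stood higher, at 986 TPM in the KO-labelled library and 492 TPM in the wild-type-labelled library. The summed depth of its last exons was higher by 2.22 on the log2 scale and that of its other exons by 0.20.

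Intronic pairs held 1 of the 12 largest positive and 4 of the 12 largest negative differences. Med25, which encodes a Mediator subunit, had a downstream form with 4.81 TPM (4.16 to 5.53) in the KO-labelled library and 23.0 TPM (21.4 to 24.8) in the wild-type-labelled library. Its upstream form had 45.2 TPM (42.6 to 47.8) in the KO-labelled library and 33.2 TPM (30.7 to 35.8) in the wild-type-labelled library. The downstream form held 9.62% of the pair in the KO-labelled library and 41.0% in the wild-type-labelled library, and the depth share was 13.1% (8.75 to 20.1) in the KO-labelled library and 55.0% (45.6 to 65.6) in the wild-type-labelled library. Both readouts thus placed the downstream form lower in the KO-labelled library.

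Depdc5, which encodes a GATOR1 subunit that restrains mTORC1, had the largest negative difference and was the only pair of the 485 past 10 points in opposite directions by the 2 readouts. Its downstream TPM share was 24.8% in the KO-labelled library and 68.6% in the wild-type-labelled library. Its depth share was 100% (63.0 to 100) in the KO-labelled library and 86.3% (60.5 to 99.7) in the wild-type-labelled library. The intervals overlapped. The upstream last exon held 0.00165 estimated read pairs in the KO-labelled library and 1.37 in the wild-type-labelled library, so its depth carries little information. Evi5l and Pias2, a SUMO ligase gene, also had overlapping depth intervals. Evi5l had a downstream TPM share of 44.6% in the KO-labelled library and 72.4% in the wild-type-labelled library. Pias2 had 61.4% in the KO-labelled library and 82.2% in the wild-type-labelled library, and its difference was -8.51 points as a share of the whole gene. Dnajc19, whose product serves mitochondrial protein import, had a downstream share of 40.5% in the KO-labelled library and 16.3% in the wild-type-labelled library, and its downstream last exon overlaps an exon of Fxr1. Its difference was 24.2 points of the pair but 14.9 points of the whole gene, and by depth its share was 76.0% (57.0 to 91.3) in the KO-labelled library and 39.0% (29.0 to 51.2) in the wild-type-labelled library.

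In overlapping pairs with other ends, Vamp4 and Wdr36 had the largest differences. The forms of Vamp4, a SNARE gene of the trans-Golgi network, end 2 bases apart, and the form called downstream has the longer last exon and the earlier start. Its share was 46.3% in the KO-labelled library and 68.0% in the wild-type-labelled library, and by depth 44.2% (41.2 to 47.5) in the KO-labelled library and 67.4% (63.4 to 71.3) in the wild-type-labelled library. Wdr36, a gene of small ribosomal subunit assembly on chromosome 18, had 43.7% in the KO-labelled library and 66.3% in the wild-type-labelled library. For Gpx1, a glutathione peroxidase gene whose level was 214 TPM in the KO-labelled library and 56.4 TPM in the wild-type-labelled library, the forms end 2 bases and begin 3 bases apart. Its downstream share was 96.8% in the KO-labelled library and 78.8% in the wild-type-labelled library.

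**Figure D5:**
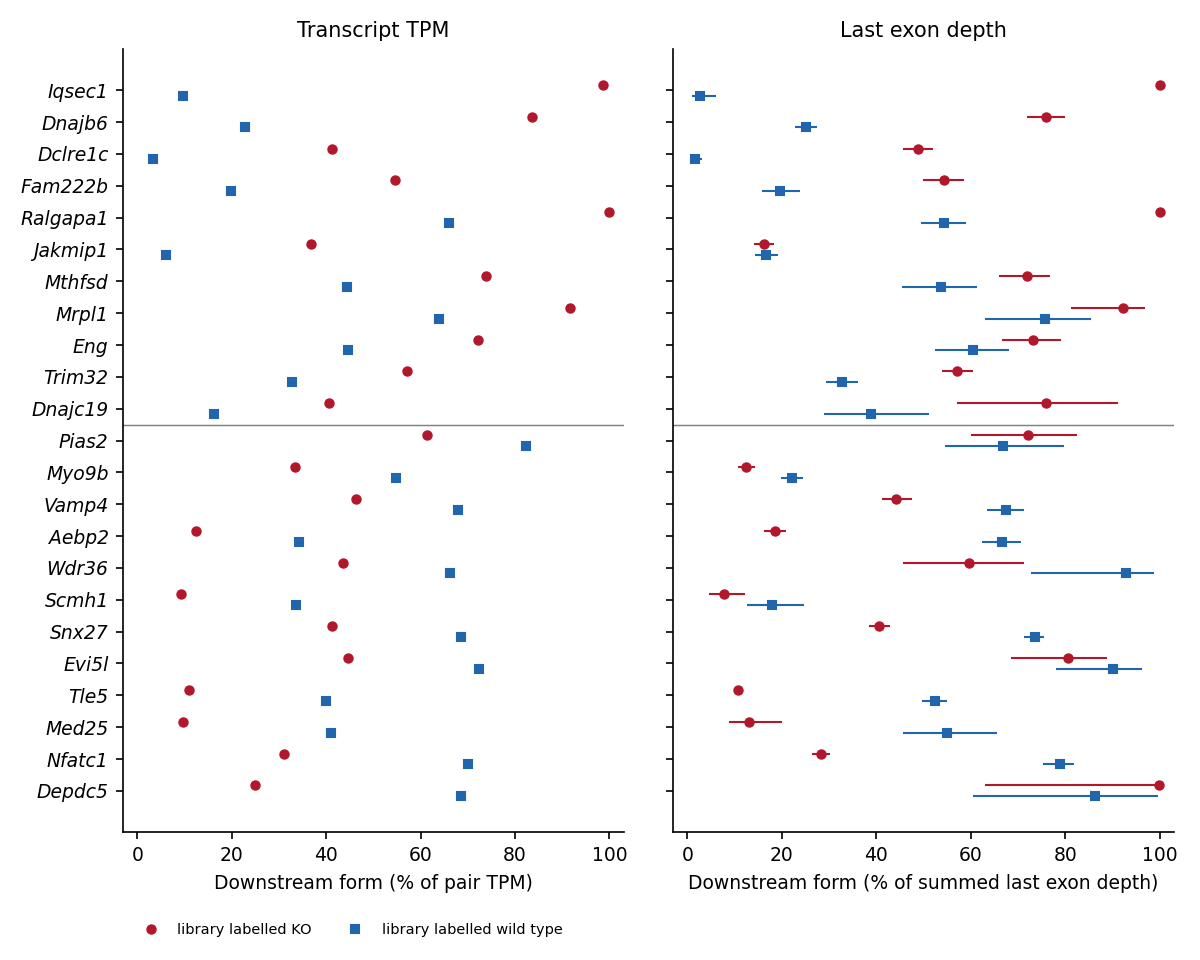
Downstream form as a percent of pair TPM (left panel) and as a percent of the summed last exon depth with 95% exact binomial intervals (right panel), for 11 of the 12 pairs with the largest positive differences (top) and the 12 with the largest negative ones (bottom). Circles are the KO-labelled library and squares the wild-type-labelled library, and for Jakmip1, Mrpl1, Eng, Depdc5, Evi5l and Pias2 the intervals on the right overlap.

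The list of 29 genes of cleavage and polyadenylation is wider than the core machinery. It also holds the U1 snRNP genes Snrnp70, Snrpa and Snrpc, as well as Cdk12, Cdk13, Scaf4 and Scaf8. None of the 29 genes differed by 1 or more in either direction at the level of the gene. Their median difference was -0.05 on the scale of log2(TPM + 1), against -0.07 over 12029 genes, and 9 lay above and 20 below 0. The sign of this median was the opposite, at 0.05, when FPKM (abundance scaled by length and depth) was used. TPM and FPKM differ by 1 factor for all genes of a library. The median over 12029 genes was taken in TPM only, so the FPKM value has no such background beside it. Of the 29 genes, 7 had an alternative last exon pair. Cstf2 and Wdr33 were past 10 points, both with a higher downstream share in the KO-labelled library. Against 11.4% of the 499 pairs that were higher by as much, 2 of 7 is too few to set the list apart.

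Cstf2 encodes the subunit of the cleavage stimulation factor that binds the RNA downstream of the cut. Its downstream form had 46.3 TPM (44.4 to 48.2) in the KO-labelled library and 39.7 TPM (37.7 to 41.7) in the wild-type-labelled library, and its upstream form 10.7 TPM (9.58 to 11.9) in the KO-labelled library and 18.1 TPM (16.5 to 19.9) in the wild-type-labelled library. The downstream share was 81.2% in the KO-labelled library and 68.6% in the wild-type-labelled library, and by depth 74.0% (71.2 to 76.8) in the KO-labelled library and 64.1% (60.5 to 67.6) in the wild-type-labelled library. Its last exons overlap exons of Nox1 and Mir3112. Wdr33, which recognises the AATAAA signal, had 72.8% in the KO-labelled library and 60.4% in the wild-type-labelled library, and by depth 56.8% (53.6 to 59.9) in the KO-labelled library and 41.8% (38.6 to 44.98) in the wild-type-labelled library. The remaining members of the list lay within 5 points. Cstf3, whose short form from an intronic poly(A) site is known, had a downstream share of 85.1% in the KO-labelled library and 87.9% in the wild-type-labelled library. Cpsf6 had 22.4% in the KO-labelled library and 23.9% in the wild-type-labelled library, and Rbbp6 had 82.99% in the KO-labelled library and 83.3% in the wild-type-labelled library.

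Of 54 measured genes of T cell signalling and surface, 5 had a pair, and 1 of these, Nfatc1, was past 10 points, against 17.6% of the 499 pairs, so the list did not stand out. Cd247, which encodes CD3 zeta, used its upstream last exon almost alone. The upstream form had 995 TPM (981 to 1009) in the KO-labelled library and 1034 TPM (1018 to 1051) in the wild-type-labelled library, and the downstream form, whose last exon overlaps Pou2f1, had 10.9 TPM in the KO-labelled library and 13.2 TPM in the wild-type-labelled library. The downstream share was 1.08% in the KO-labelled library and 1.26% in the wild-type-labelled library, and by depth it was 0.0382% in the KO-labelled library and 0.0665% in the wild-type-labelled library. Fas, the death receptor gene, had a downstream share of 83.2% in the KO-labelled library and 81.5% in the wild-type-labelled library. Ikbkb, which encodes a kinase of the NF-kB pathway, had 66.1% in the KO-labelled library and 72.5% in the wild-type-labelled library.

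Of 55 genes of RNA splicing, 7 had a pair and none was past 10 points, against 17.6% of the 499 pairs, which leaves little to expect among 7. Srsf1, which encodes an SR protein, had a downstream share of 64.6% in the KO-labelled library and 55.4% in the wild-type-labelled library. Khdrbs1, which encodes the RNA-binding protein Sam68, had 29.9% in the KO-labelled library and 37.9% in the wild-type-labelled library, and its downstream form is annotated as non-coding. Hnrnpk, whose last exons begin 60 bases apart, had 21.01% in the KO-labelled library and 24.9% in the wild-type-labelled library. Son, a nuclear speckle protein gene, had 82.4% in the KO-labelled library and 79.8% in the wild-type-labelled library. The depth intervals of these 4 genes did not overlap, while those of Hnrnpa1, Sf1 and Luc7l2 did. Srsf1 and Hnrnpk are same end pairs, for which the intervals are too narrow. No share of intervals apart was taken over all pairs, so this does not set the list apart. Among 26 genes of actin and adhesion, Cdc42, a small GTPase gene of actin control, alone had a pair. Its downstream form had 387 TPM (379 to 395) in the KO-labelled library and 350 TPM (342 to 359) in the wild-type-labelled library, and its share was 93.1% in the KO-labelled library and 92.1% in the wild-type-labelled library. The lists of 25 T lineage transcription factors, 7 arginine methyltransferases and 16 apoptosis genes held no pair.

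For 365 pairs the stop codons of both forms could be read from matched transcripts. The forms had other stop codons in 292 pairs and the same stop codon in 73. Among pairs with other stop codons, 28 had a higher and 18 a lower downstream share by 10 points or more in the KO-labelled library, 15.8% in all. Among pairs with the same stop codon 9 were higher and 5 lower, 19.2% in all. The same stop was shared in 49 of 117 same end pairs but in only 3 of 112 intronic pairs and 18 of 131 composite pairs. The larger differences thus fell on pairs with other stop codons and on pairs with the same one, at shares close to each other. In 33 of the 73 pairs with the same stop codon, both stops lay in the last exons. Khdrbs1, whose downstream form is annotated as non-coding, is counted among the 73. Stop position therefore does not show which pairs alter a protein.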

How the data were processed

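RNA-seq of 1 library labelled KO and 1 labelled wild type was analysed from gene tables and transcript files. Per the labels' protocols, total RNA was taken with Trizol and made into TruSeq libraries. Per the submitters' processing notes, HISAT2 and StringTie were used with mm10 (GRCm38), and per the file headers the authors' StringTie version was 1.3.3b with RefSeq transcripts. The deposited TPM and FPKM values are abundances per length and depth, and the deposited coverage (a signal) is the mean read depth per base of a gene, transcript or exon, as assigned to transcripts by the authors' program. No label or header says whether counting used the strand, and reads of overlapping genes may be assigned to either gene. In the deposited transcript files, TPM per transcript and coverage per exon were read from the attribute column, which holds other text as well.

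Pair shares were computed from TPM and from last exon coverage. Read pairs were estimated as covered bases divided by 202, since 28.3% of transcripts with few reads in the KO-labelled library and 27.7% in the wild-type-labelled library lay within 2 bases of a multiple of 202, against 2.48% by chance. Both last exons of a pair held a median of 807 read pairs in the KO-labelled library and 619 in the wild-type-labelled library. Intervals are 95% exact Poisson for levels and 95% exact binomial (Clopper-Pearson) for shares. PCR copies are not independent molecules and the assignment of reads to forms has its own error, so intervals cover only counting error of assigned read pairs. They count every read pair assigned to a form, also on bases that both forms share. They are thus too narrow where the forms share most bases. The limit of 10 points is a rule of size, not a test, and gene differences are log2 of TPM with a pseudocount of 1, which understates those of low genes.

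Named pairs are the 12 with the largest positive and the 12 with the largest negative differences among pairs with 50 read pairs in each library, without predicted genes and RIKEN clones, pairs whose readouts opposed each other, gene list members past 10 points, and the 6 list members of highest TPM. Other list members and Gpx1, Birc5, Znrf1 and Xist were named after their values were seen. The results of some named pairs are not reported here. The members and the lists were chosen with earlier results of these data known. Alternatives were another level limit, other denominators, other limits on the difference, exclusion of overlapping exons, another order of forms, summed depth and FPKM. Scripts were tested on simulated data and ran in Python 3.11.15 (pandas 2.3.3, numpy 2.4.6, matplotlib 3.10.9, scipy 1.17.1).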

Additional observations from a re-analysis of the deposited data

How the results depend on the processing

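Counts depended mainly on the limit and on which pairs entered. At 25 points, 12 pairs were higher and 7 lower in the KO-labelled library by TPM, and 11 higher and 7 lower by depth. At 5 points, 128 were higher and 71 lower by TPM. With the 324 pairs whose last exons do not overlap, 32 were higher and 17 lower by TPM, and 23 higher and 4 lower by depth, of which 19 were past 10 points the same way by both. Lower calls by depth thus lay mostly in overlapping last exons, and the cause was not tested. Where the minor form held 10% or more of the pair in 1 or both libraries, the median difference was 2.04 points, since pairs with a rare form were left out. For the cleavage and polyadenylation genes the median turned to 0.0482 with FPKM, a unit that differs from TPM by 1 factor for all genes of a library. The other 32 settings of these results stayed within 1.5 times the count or within the rank interval of the median over genes, with 42 higher and 23 lower at 20 TPM, and 46 higher and 28 lower without last exons that overlap another gene. The last of these, the order by exon start and the summed depth were chosen after seeing the data. As a share of the whole gene's TPM, 31 named differences kept their side of 10 points and Pias2 did not. No paired analysis was possible because each genotype has 1 library, and for the same reason no library could be left out. Depth limits pairs with short last exons: 14 pairs had under 50 read pairs in a library.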

Other observations

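The balance of forms says nothing of how much last exon there was in all, which was read from the summed depth of both last exons against the other exons of the gene. Over the 485 pairs the last exons were higher than the other exons by a median of 0.17 on the log2 scale in the KO-labelled library relative to the wild-type-labelled library, close to the 0.18 seen in genes with 1 transcript. In 11 pairs the gap was 1 or more in size, 6 with higher and 5 with lower last exons in the KO-labelled library. The genes with 1 transcript had quartiles of 0.06 and 0.31, but gaps of 1 or more were not counted there. The 11 pairs thus have no background share beside them. Nfatc1, Tle5, Ndor1 and Aebp2 had higher last exons together with a lower downstream share. Znrf1, a ubiquitin ligase gene, had the lowest value next to its other exons, with last exons at -2.82 and other exons at -0.26 on the log2 scale. Its gene level was 152 TPM in the KO-labelled library and 450 TPM in the wild-type-labelled library. Med25 had last exons at -2.29 and other exons at -0.13. In Plppr3 the other exons differed more than the last exons, at 1.66 and -0.49, and its downstream last exon overlaps an exon of Ptbp1.

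Of the 14 pairs with few read pairs, 4 were past 10 points by TPM. Agtpbp1 had a downstream share of 90.2% in the KO-labelled library and 51.8% in the wild-type-labelled library, from 218 read pairs over its last exons in the KO-labelled library and 25.6 in the wild-type-labelled library. Nmral1 had 82.9% in the KO-labelled library and 50.6% in the wild-type-labelled library. Pdlim7 had 73.6% in the KO-labelled library and 100% in the wild-type-labelled library, and Nudt6 had 11.49% in the KO-labelled library and 21.9% in the wild-type-labelled library. These genes were named after their values were seen.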
